A study of Mus musculus with 22 samples.

Results

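The aminoacyl-tRNA synthetases were taken as every gene of the expression table whose symbol is 1 letter followed by ars, with or without a closing 1 or 2, together with Eprs, Farsa and Farsb. The rule found 37 of the 11208 genes, 20 that encode cytosolic enzymes and 17, with symbols ending in 2, that encode enzymes of the mitochondrion. Each synthetase joins 1 kind of amino acid to the tRNAs that carry it, spending ATP, and so sets which amino acid a codon brings to the ribosome. Cytosol and mitochondrion each need a set, because mitochondrial mRNAs are read by their own ribosomes and tRNAs, and both sets are encoded in the nucleus. Exceptions are Gars and Kars, whose genes supply the glycine and lysine enzymes of both compartments, Eprs, a fused enzyme for glutamate and proline, and the phenylalanine enzyme of the cytosol, which is built from the subunits of Farsa and Farsb. Several cytosolic synthetases are known targets of ATF4, the transcription factor of the amino acid response, and growing fibroblasts raise protein synthesis when they leave the resting state.

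The cells were mouse NIH/3T3 fibroblasts in which a doxycycline-inducible construct had been stably integrated, carrying either the transcription factor E2F1 (E2F1 line) or no insert (empty vector, EV line). All of them had been kept for 48 h in 0.25% serum. Doxycycline (500 ng/ml) was given for 0, 2, 6 and 12 h to cells of either line, and EV cells were also sampled at 2, 6 and 12 h of 10% serum. Each of these 11 groups held 2 libraries of polyadenylated RNA, 22 in all, and serum was compared with the EV libraries of 0 h, which the doxycycline series of that line also used. The labels give neither the promoter of the construct nor whether a line is 1 clone. They do not say either that replicates were separate cultures, so p-values measure only the spread between these libraries. In such bulk samples, fewer cells with a transcript and less transcript per cell cannot be told apart.

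Values are the authors' normalized counts, and "level" below means such a value. Totals ran from 34014608 to 46057140 per library and medians from 1242.5 to 1434.5, while the depth in reads is unknown. A change is a difference of log2(value + 1), given with its standard error (SE), and limma called it where the p-value, adjusted by Benjamini-Hochberg over all 11208 genes, was at most 0.05. All 9 fibroblast markers listed were in the table, and none of the 11 epithelial, blood and endothelial markers was. The lowest mean of a gene in the table was 99.59 over all libraries, so a gene missing from it may still be expressed at a low level. Shares of all genes below are shares of the genes in the table. Of the fibroblast markers 0 rose and 8 fell at 12 h in the E2F1 line, where 31.8% of all genes were called higher and 29.7% lower. At 12 h of serum 2 rose and 5 fell, against 36% and 29.7%. In the E2F1 line E2f1 itself stood at 1703 and 1637 at 0 h, 1535 and 1755 at 2 h, 3806 and 3602 at 6 h, and 2683 and 2845 at 12 h. Limma gave changes of -0.02, 1.15 and 0.73, with adjusted p = 9.61e-08 for the 6 h value and 1.65e-05 for that of 12 h, so the 2 h libraries did not show the induction. These counts are of the mouse gene, and the labels do not give the species of the E2F1 insert. Libraries of 2 h also stood apart in genes that separate the lines at 0 h. Starved E2F1 cells exceeded starved EV cells at least 8-fold in 16 genes. Of these, 15 were higher in the EV line at 2 h of doxycycline than at 0 h or later, 14 were higher in it at 2 h of serum than at 0 h, and 10 were lower in the E2F1 line at 2 h than before or after. For Ddx3y the levels were 580 and 521 in the E2F1 line and 9 and 4 in the EV line at 0 h, 103 and 71 in the EV line at 2 h of doxycycline, and 132 and 170 at 2 h of serum. Every change at 2 h given below rests on these libraries and has no value without them. The counts of called synthetases at 6 and 12 h against 0 h, for either stimulus and line, were the same when the 2 h doxycycline or the 2 h serum libraries were left out of the fit, an alternative chosen after seeing the data.

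The sequences in front of the genes are described first. RefSeq promoters on GRCm38.p6, from 250 bases before to 50 after the gene start, were available for 26 of the 37 synthetases, 12 cytosolic and 14 mitochondrial. They were searched on both strands for the CARE motif TGATGNAA, the element that ATF4 binds with a C/EBP partner. It was present in 5 of the 12 cytosolic promoters (Aars, Gars, Iars, Tars and Yars) and in 0 of the 14 mitochondrial ones, against 3.97% of 32851 promoters and 2.56% of those of the 8609 matched genes of the table. The promoters of Gars, Aars and Tars are shown because these genes are among those that changed most, with the motif in capitals as it reads on the gene's strand. In Gars its first base lies at position -30 from the start, in Aars at -112, and in Tars at -15.
Gars, chr6:55037751-55038000, plus strand: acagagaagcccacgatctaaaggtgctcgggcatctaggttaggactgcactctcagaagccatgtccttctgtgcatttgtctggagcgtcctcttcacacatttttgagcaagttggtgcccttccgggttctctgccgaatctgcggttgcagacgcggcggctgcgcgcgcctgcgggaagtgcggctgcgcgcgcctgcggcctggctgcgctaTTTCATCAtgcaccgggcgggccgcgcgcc
Aars, chr8:111033592-111033841, plus strand: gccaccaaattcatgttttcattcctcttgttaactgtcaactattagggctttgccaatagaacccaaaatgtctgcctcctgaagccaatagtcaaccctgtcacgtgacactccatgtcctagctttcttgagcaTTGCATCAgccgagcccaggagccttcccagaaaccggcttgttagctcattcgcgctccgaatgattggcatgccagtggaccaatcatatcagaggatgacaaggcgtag
Tars, chr15:11399659-11399908, minus strand: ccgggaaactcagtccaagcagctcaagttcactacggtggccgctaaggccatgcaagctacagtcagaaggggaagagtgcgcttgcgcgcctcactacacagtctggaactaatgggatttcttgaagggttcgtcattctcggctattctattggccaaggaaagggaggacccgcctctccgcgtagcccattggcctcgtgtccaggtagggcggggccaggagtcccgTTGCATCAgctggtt
Aars has a further match starting at position 10 after the start. Those of Yars and Iars start at positions 4 and 8, shown here with the bases around them.
Aars, chr8:111033840-111033869, plus strand: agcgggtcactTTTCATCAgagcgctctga
Yars, chr4:129189895-129189924, plus strand: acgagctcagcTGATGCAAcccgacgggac
Iars, chr13:49682126-49682155, plus strand: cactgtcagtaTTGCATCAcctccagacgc
For contrast, the promoters of Qars and Yars2 hold none of the motifs searched. Qars is the cytosolic gene that serum did not raise, and Yars2 is a mitochondrial gene raised by both stimuli.
Qars, chr9:108507755-108508004, plus strand: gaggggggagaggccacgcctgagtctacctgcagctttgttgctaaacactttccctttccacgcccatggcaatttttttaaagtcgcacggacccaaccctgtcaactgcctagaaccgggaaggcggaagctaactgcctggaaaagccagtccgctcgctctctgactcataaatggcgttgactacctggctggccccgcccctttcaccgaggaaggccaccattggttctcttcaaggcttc
Yars2, chr16:16302715-16302964, plus strand: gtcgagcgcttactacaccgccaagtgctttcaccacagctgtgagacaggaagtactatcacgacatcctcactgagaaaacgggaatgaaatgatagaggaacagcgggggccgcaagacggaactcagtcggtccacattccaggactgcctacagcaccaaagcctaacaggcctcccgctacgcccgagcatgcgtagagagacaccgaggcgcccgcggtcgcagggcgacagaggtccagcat
An E2F motif, TTTCCCGC or TTTGGCGC on either strand, was found in the promoters of Fars2, Rars2 and Sars2 only among the 26, against 1.56% of all promoters and 3.79% of those in the table. The E-box CACGTG, which reads the same on both strands, occurred in those of Aars, Ears2, Farsb, Iars and Tars, against 7.15% and 12.1%. It shares no base with a CARE match in Aars, Iars or Tars. A match describes letters in this window and is not evidence that a factor binds there.

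Cytosolic synthetases were the more abundant set. Per kilobase of exon, the mean level over all libraries had a median of 827.23 over the 20 cytosolic genes, from 352.31 for Cars (cysteine) to 2565.58 for Gars (glycine). Without Lars2, the 16 mitochondrial genes had a median of 136.97 per kilobase, from 41.68 for Nars2 to 292.17 for Yars2, so the 2 ranges did not meet. Lars2, the mitochondrial leucine enzyme, is listed at 2816.82 per kilobase. That value has to be read with its replicates, which differed far more than those of any other mitochondrial synthetase. Between replicates Lars2 differed by a median of 0.98 on the log2 scale over the groups, and the others by 0.09 to 0.23. In E2F1 cells Lars2 read 8218 and 27313 at 0 h, 84470 and 46953 at 2 h, and 46491 and 136615 in the EV line at 2 h of serum. The gene CT010467.1, annotated as rRNA, read 13330 and 83906, 272670 and 137110, and 158411 and 448933 in the same libraries. In 11 of 11 groups, the replicate with the higher CT010467.1 had the higher Lars2. Lars2 transcripts share a run of 52 bases with Gm15564, a gene whose level also rose at 2 h of serum (2.58), and no shared run of 15 bases or more was found with CT010467.1. The part of reads from such genes in the Lars2 value was not tested. Its only call was at 2 h of serum, and the mitochondrial count there is also given without it.

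**Figure D1:**
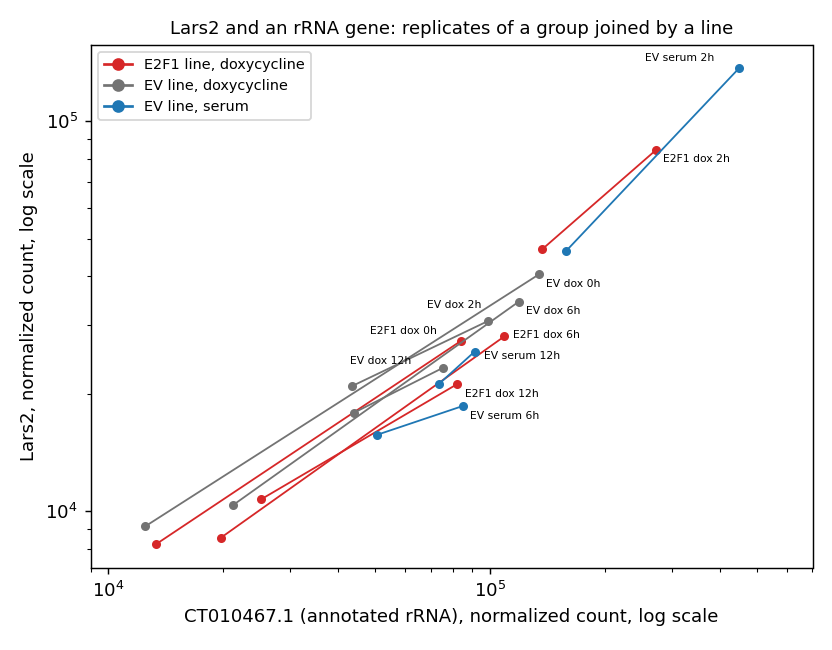
Lars2 level (vertical, log scale) against the level of the rRNA gene CT010467.1 (horizontal, log scale) in the 22 libraries, in normalized counts. A line joins the replicates of a group and every line slopes upwards: the replicate with more CT010467.1 had more Lars2 in 11 of 11 groups.

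Serum raised nearly the whole cytosolic set. Of the 20 cytosolic genes, 17 were called higher by limma at 2 h, 19 at 6 h and 18 at 12 h, and the only lower one was Qars at 2 h. Among all genes, 37.5% were called higher and 33.5% lower at 2 h, 36.5% and 31% at 6 h, and 36% and 29.7% at 12 h. The median change of the cytosolic genes was 1.06 at 2 h, 1.25 at 6 h and 0.97 at 12 h, whereas that of all genes was 0.03, 0.03 and 0.05. Their highest mean was at 6 h in 16 genes, at 2 h in Cars and Rars, and at 12 h in Mars and Vars. In Aars, Farsa, Gars, Sars, Tars and Yars, however, a 6 h library lay below both 2 h libraries. The 16 also include Qars, which was not called, with means of 4363.5 at 0 h and 4436 at 6 h. Scaling to equal library totals shifted the median of all genes by -0.374 at 2 h and -0.214 at 6 h, and the cytosolic calls were then 14 higher with 3 lower for 2 h, and 19 with 1 for 6 h.

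**Figure D2:**
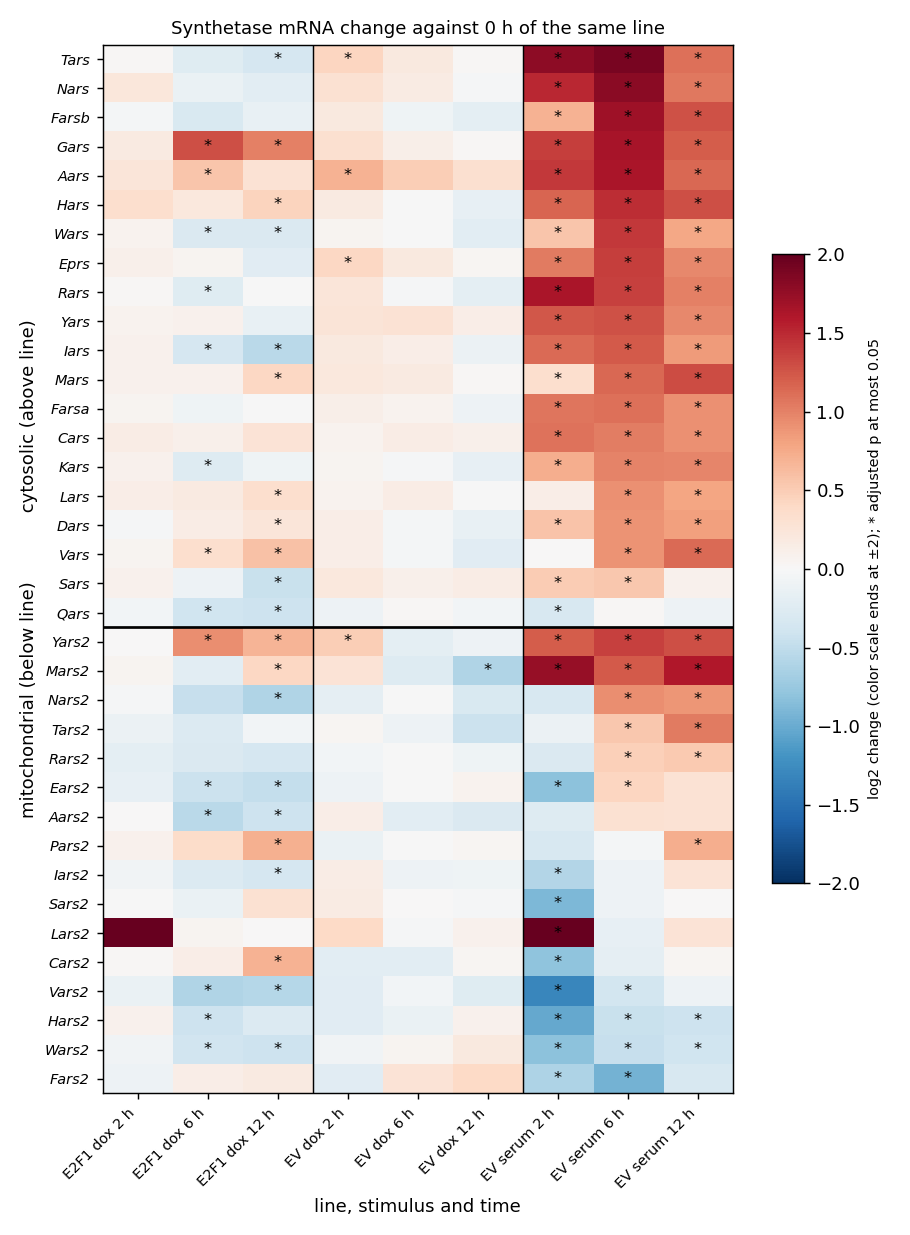
Log2 change of 36 of the 37 synthetases against 0 h of the same line (columns: line, stimulus and hours; rows: genes, cytosolic above the line and mitochondrial below it). Red is higher, blue is lower, and an asterisk marks a limma adjusted p of at most 0.05; in the serum columns red fills nearly all cytosolic rows, whereas the E2F1 columns mix both colours.

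Tars, the threonine enzyme, led at 2 and 6 h. Its levels were 3468 and 3187 at 0 h in the EV line, 11699 and 11268 at 2 h of serum, 10642 and 14363 at 6 h, and 6937 and 7298 at 12 h. Every serum library lay above both 0 h libraries, and the 12 h values lay below those of 2 and 6 h. The change was 1.79 at 2 h (SE 0.11, limma adjusted p = 4.60e-11), 1.89 at 6 h (SE 0.11, adjusted p = 4.85e-11) and 1.10 at 12 h (SE 0.11, adjusted p = 6.67e-08). Nars (asparagine) followed a like course: 4107 and 3770 at 0 h, 10811 and 11579 at 2 h, 11776 and 16118 at 6 h, and 8349 and 8007 at 12 h. Its changes were 1.51, 1.81 and 1.05, again with no overlap with 0 h. Rars, the arginine enzyme of the multi-synthetase complex, read 2661 and 3026 at 0 h, 8979 and 8592 at 2 h, 7115 and 7597 at 6 h, and 6005 and 5476 at 12 h. Unlike Tars and Nars it was highest at 2 h, with changes of 1.63 (SE 0.09, limma adjusted p = 2.55e-11), 1.37 and 1.01.

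Other members of the set were later. Farsb, the beta subunit of the phenylalanine enzyme, read 960 and 1428 at 0 h, 1819 and 1989 at 2 h, 3935 and 3649 at 6 h, and 3067 and 2592 at 12 h. Its limma change grew from 0.70 at 2 h to 1.69 at 6 h (SE 0.15, adjusted p = 1.29e-08) and was 1.27 at 12 h. The other subunit, Farsa, changed by 1.08, 1.10 and 0.91. Mars (methionine) read 2453 and 1992 at 0 h, 2723 and 2886 at 2 h, 4956 and 4853 at 6 h, and 5434 and 5444 at 12 h, a step that came after 2 h. Its changes were 0.34, 1.15 and 1.30 (SE 0.12, limma adjusted p = 3.08e-08 at 12 h). The 2 h call of Mars was lost without EV 0 h replicate 2 (0.19) or serum 2 h replicate 2 (0.30), and its sign turned with equal totals (-0.03). Hars, the histidine enzyme, read 1814 and 1951 at 0 h, 4352 and 4073 at 2 h, 5545 and 4935 at 6 h, and 4698 and 4517 at 12 h, and its changes were 1.16, 1.47 and 1.29. Its start overlaps that of Hars2 on the opposite strand, and strand use in the counting is not stated.

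A few cytosolic genes stood outside this rise. Qars, which charges tRNA with glutamine, read 4311 and 4416 at 0 h, 3405 and 3560 at 2 h, 4203 and 4669 at 6 h, and 4071 and 4104 at 12 h. Only its 2 h libraries lay clearly below 0 h, with a limma change of -0.33 (SE 0.09, adjusted p = 0.0027), and at 6 and 12 h the changes of 0.02 and -0.09 did not pass the test. Over the 22 libraries Qars had the narrowest range of the 37 genes, 2842 to 4717, a ratio of 1.66. Vars (valine) changed by 0.02 at 2 h, which did not pass, but by 0.89 at 6 h and 1.13 at 12 h. Lars (leucine) likewise gave 0.13, 0.92 and 0.79, the first not called. Sars (serine) was called at 2 and 6 h, with 0.51 and 0.54, and gave 0.08 at 12 h, which did not pass. Its calls were lost under quantile normalization, at 0.05 and 0.21, and the 2 h call of Sars also with equal totals, at 0.13. Wars (tryptophan) lost its 2 h call, 0.56, with equal totals, at 0.18.

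**Figure D3:**
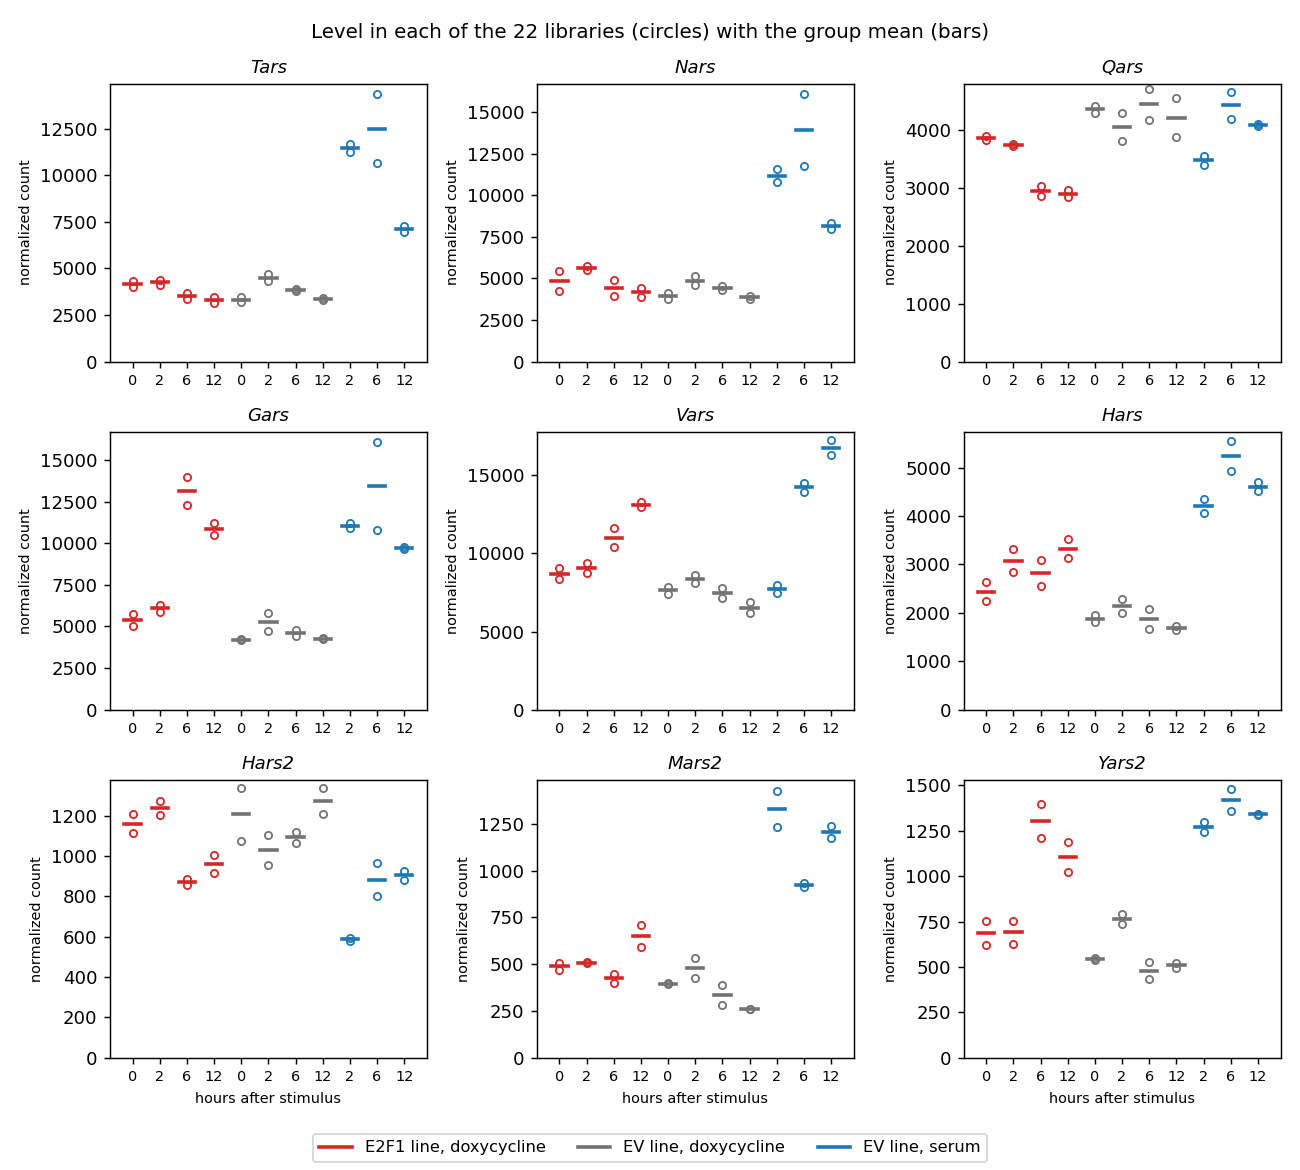
Level in normalized counts (vertical, from 0) of 9 synthetases in each of the 22 libraries (circles) with the group mean (bars), by hours after doxycycline in the E2F1 line (red), doxycycline in the EV line (grey) and serum in the EV line (blue). Tars, Nars, Hars and Mars2 are high in all serum libraries, and Gars is high in serum and at 6 and 12 h in the E2F1 line.

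Mitochondrial synthetases leaned lower at 2 h of serum and were mixed at 6 and 12 h. Of the 17, limma called 3, 6 and 7 higher at 2, 6 and 12 h of serum, and 9, 5 and 2 lower. Among all genes 37.5%, 36.5% and 36% were called higher and 33.5%, 31% and 29.7% lower, so the 6 h counts lay near the general shares. Without Lars2 the 2 h counts were 2 and 9. With equal totals the 17 gave 3 higher and 14 lower at 2 h, 4 and 7 at 6 h, where the balance turned, and 7 and 3 at 12 h. Their median change was -0.59 at 2 h, -0.09 at 6 h and 0.29 at 12 h. In 13 of the 17, the lowest mean of the serum series was at 2 h. The 3 genes that rose at 2 h were Lars2, Mars2 and Yars2. Mars2, the mitochondrial methionine enzyme, read 398 and 393 at 0 h, 1426 and 1234 at 2 h, 911 and 934 at 6 h, and 1238 and 1175 at 12 h. None of its serum libraries came near 0 h, and the changes were 1.74 (SE 0.15, limma adjusted p = 7.42e-09), 1.22 and 1.61. Yars2 (tyrosine) read 552 and 540 at 0 h, 1298 and 1245 at 2 h, 1478 and 1358 at 6 h, and 1342 and 1339 at 12 h. It was raised to about the same level at all 3 times, with changes of 1.22 (SE 0.13, limma adjusted p = 1.12e-07), 1.37 and 1.29. The Lars2 call at 2 h, 2.05 (SE 0.71, limma adjusted p = 0.0158), was lost without EV 0 h replicate 1 (0.98), without serum 2 h replicate 2 (1.27) and under quantile normalization (1.41). In the authors' deposited table for 2 h of serum, Lars2 had a log2 change of 2.06 with an adjusted p of 6.45e-45. No other synthetase is listed in the authors' deposited tables of changes against 0 h, which leave out every gene that changed by less than 2 on the log2 scale.

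Among those that fell, Vars2 and Hars2 changed by more than 1 on the log2 scale at 2 h. Vars2, the valine enzyme, read 1418 and 1478 at 0 h, 500 and 691 at 2 h, 1192 and 1056 at 6 h, and 1331 and 1381 at 12 h, so it dipped and returned. Its changes were -1.30 (SE 0.12, limma adjusted p = 3.15e-08), -0.37 and -0.09, the last not called. Hars2 read 1339 and 1074 at 0 h, 581 and 595 at 2 h, 964 and 802 at 6 h, and 881 and 927 at 12 h. It stayed below 0 h throughout, at -1.03, -0.45 and -0.41, while its neighbour Hars rose. At 6 h the lowest was Fars2 (phenylalanine), with 479 and 480 at 0 h, 316 and 311 at 2 h, 294 and 210 at 6 h, and 336 and 443 at 12 h, a change of -0.95 at 6 h (SE 0.17, limma adjusted p = 7.98e-05). Wars2 (tryptophan) read 773 and 969 at 0 h, 427 and 561 at 2 h, 658 and 596 at 6 h, and 650 and 668 at 12 h, with changes of -0.82, -0.47 and -0.39. The 6 h calls of Vars2 and Wars2 were lost without EV 0 h replicate 2, at -0.34 and -0.30, and that of Hars2 without EV 0 h replicate 1, at -0.29. Leaving out serum 6 h replicate 2 ended the 6 h calls of Hars2 (-0.31), Vars2 (-0.28) and Wars2 (-0.39). The 12 h call of Hars2 was lost without EV 0 h replicate 1, at -0.25, and that of Wars2 without EV 0 h replicate 2, at -0.23, or either serum 12 h library, at -0.37 and -0.41.

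Genes that rose late completed the mitochondrial set. Tars2 (threonine) read 911 and 820 at 0 h, 720 and 879 at 2 h, 1310 and 1193 at 6 h, and 1797 and 1773 at 12 h. Its 2 h libraries overlapped those of 0 h and its later ones did not, with changes of -0.12, 0.53 and 1.05 (SE 0.13, limma adjusted p = 2.32e-06 at 12 h). Nars2 (asparagine) read 229 and 344 at 0 h, 239 and 212 at 2 h, 607 and 472 at 6 h, and 521 and 514 at 12 h, and changed by -0.32, 0.93 and 0.88, the first not called. Rars2, the arginine enzyme, gave -0.28, not called, then 0.47 and 0.52. Its 6 h call was lost without EV 0 h replicate 1 (0.39), without serum 6 h replicate 1 (0.26) and with equal totals (0.26), and its 12 h call without EV 0 h replicate 1 (0.44). Pars2 (proline) was called at 12 h alone, at 0.73. Cars2, Ears2, Iars2 and Sars2 (cysteine, glutamate, isoleucine and serine) fell at 2 h by 0.81, 0.82, 0.59 and 0.90 on the log2 scale. At 12 h their changes were 0.03, 0.29, 0.28 and 0.01, and none of these passed the test. Ears2 was called higher at 6 h in between, by 0.42, a call lost with equal totals (0.21), without EV 0 h replicate 2 (0.33) and without serum 6 h replicate 2 (0.35).

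**Figure D4:**
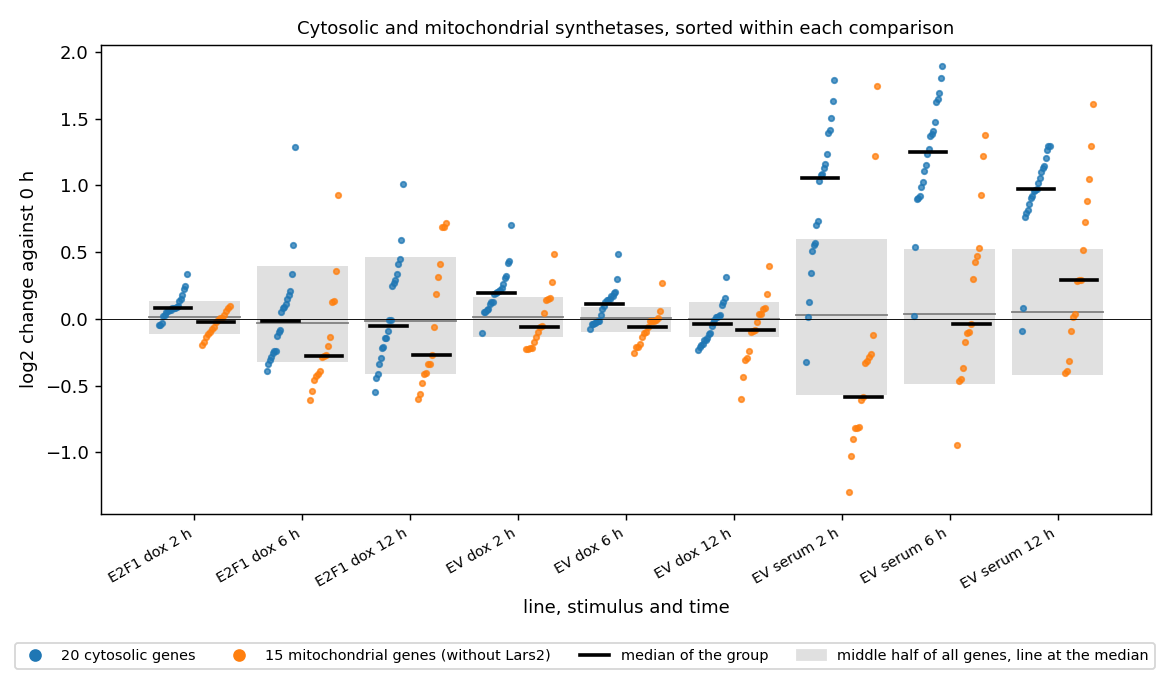
Log2 change against 0 h (vertical) of the 20 cytosolic (blue) and 15 mitochondrial synthetases without Lars2 (orange) in each comparison, sorted within it; black bars are medians and the grey band spans the quartiles of all 11208 genes. Under serum the cytosolic medians stand at 1.06, 1.25 and 0.97, above the band, and in the E2F1 line they stay near 0.

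Setting each mitochondrial enzyme beside the cytosolic one for the same amino acid gave 17 pairs, with Fars2 beside Farsa and both Ears2 and Pars2 beside Eprs. At 2 h of serum the cytosolic partner rose and the mitochondrial one fell in 8 pairs, for example Hars at 1.16 with Hars2 at -1.03, and Cars at 1.08 with Cars2 at -0.81. In 2 pairs both rose, those of methionine and tyrosine. By 6 h the pairs of opposite call were 5 and those with both higher 6, and by 12 h they were 2 and 7. The cytosolic change was the larger in 15 of 17 pairs at each of the 3 times. With doxycycline for 2, 6 and 12 h this count was 16, 11 and 9 in the E2F1 line. In the EV line it was 14, 14 and 9, so so high a count was not particular to serum. Methionine was the exception at 2 h among pairs with reliable replicates: Mars2 changed by 1.74 and Mars by 0.34. These counts are a description over members that share libraries.

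**Figure D5:**
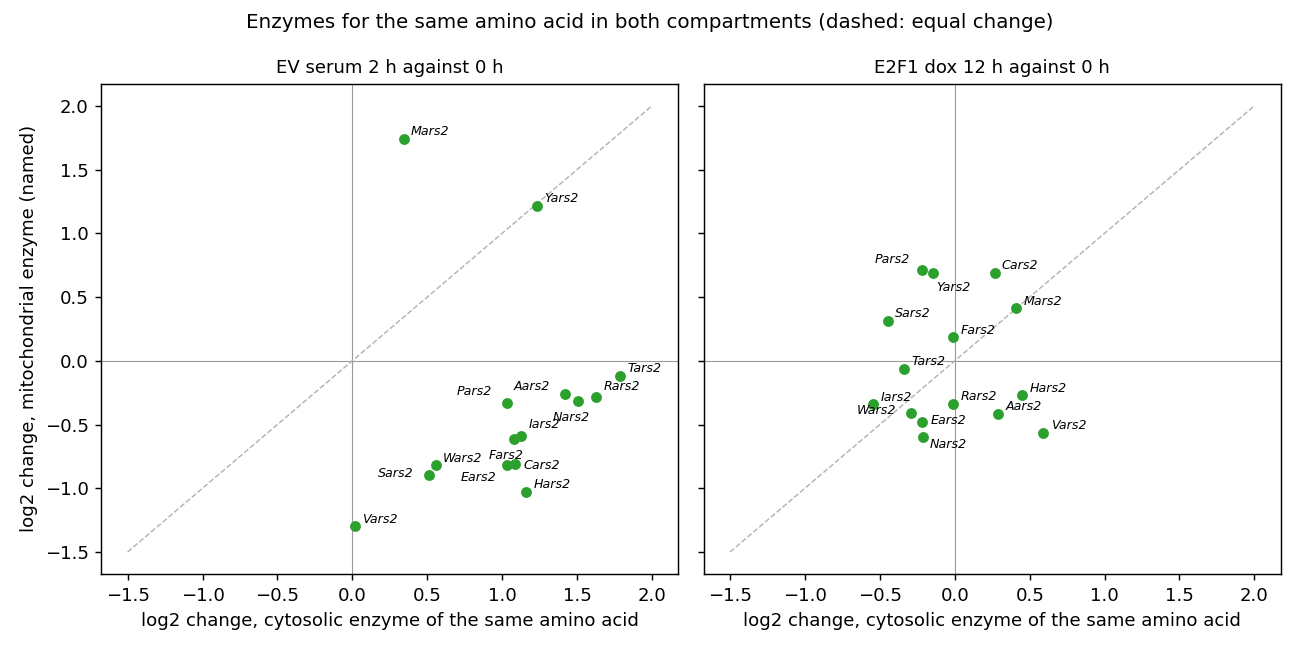
Log2 change of 15 mitochondrial synthetases (vertical, named) against that of the cytosolic enzyme for the same amino acid (horizontal), Lars2 left out, at 2 h of serum in the EV line (left) and 12 h of doxycycline in the E2F1 line (right); the dashed line marks equal change. On the left most points lie at the lower right, with a cytosolic rise and a mitochondrial value below 0, and on the right they lie around 0.

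Induction of E2F1 changed fewer synthetases and in both directions. At 2 h limma called 0 of 37 (2 had an unadjusted p below 0.05), while 1.86% of all genes were called. At 6 h it called 5 higher and 10 lower, where 28.8% of all genes were called higher and 22.9% lower. At 12 h the counts were 11 and 11, against 31.8% and 29.7%. In either direction these were 15 of 37 at 6 h, against 51.7% of all genes, and 22 of 37 at 12 h, against 61.5%. Of the cytosolic genes, 3 rose and 5 fell at 6 h, and 6 rose and 5 fell at 12 h, with median changes of -0.01 and -0.05. Of the mitochondrial ones 2 rose and 5 fell at 6 h, and 5 rose and 6 fell at 12 h, with medians of -0.27 and -0.06. The median of all genes was -0.03 at 6 h and -0.02 at 12 h. The balance depended on scaling: quantile normalization, which moved the median of all genes by -0.106 at 6 h, gave 4 higher with 17 lower for 6 h, then 9 with 17 for 12 h, and equal totals gave 5 and 16, then 9 and 14. Without E2F1 6 h replicate 2 the 6 h count was 9, with 5 higher and 4 lower.

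Gars, whose enzyme joins glycine to tRNA in both compartments, had the largest cytosolic rise. It lies on chromosome 6, 55038007 to 55079500, plus strand. Its levels in the E2F1 line were 5720 and 5054 at 0 h, 5894 and 6269 at 2 h, 13954 and 12313 at 6 h, and 11191 and 10492 at 12 h. The libraries of 6 and 12 h lay far above those of 0 and 2 h, and limma gave changes of 1.29 (SE 0.13, adjusted p = 2.26e-07) and 1.01 (SE 0.13, adjusted p = 2.93e-06). In the EV line doxycycline left Gars between 4197 and 5818, and serum brought it to 10919 and 11182 at 2 h, 10819 and 16095 at 6 h, and 9642 and 9800 at 12 h. Vars, the valine enzyme, read 9070 and 8364 at 0 h in the E2F1 line, 8722 and 9400 at 2 h, 11621 and 10416 at 6 h, and 12957 and 13293 at 12 h. It rose by 0.34 (SE 0.08, limma adjusted p = 0.00195) and then 0.59 (SE 0.08, adjusted p = 4.86e-06), though the 6 h call was lost under quantile normalization, at 0.14. Aars (alanine) read 6971 and 5952 at 0 h, 7246 and 8091 at 2 h, 10506 and 8526 at 6 h, and 7864 and 7902 at 12 h, higher at 6 h by 0.56 (SE 0.15, limma adjusted p = 0.00599). That call of Aars was lost without E2F1 6 h replicate 1 (0.40) or E2F1 0 h replicate 2 (0.44), and its 12 h change of 0.29 did not pass. Hars read 2644 and 2238 at 0 h, 2837 and 3311 at 2 h, 3089 and 2549 at 6 h, and 3130 and 3524 at 12 h, higher at 12 h by 0.45 (SE 0.12, limma adjusted p = 0.00383). Mars, Lars and Dars (methionine, leucine and aspartate) were also called at 12 h, by 0.41, 0.33 and 0.25. The calls of Hars, Mars, Lars and Dars were all lost without E2F1 0 h replicate 2, at 0.33, 0.34, 0.28 and 0.20. Lars also lost it without E2F1 12 h replicate 1 (0.32) and under quantile normalization (0.17), and Dars without either 12 h library (0.27 and 0.22), under quantile normalization (0.09) and with equal totals (0.19).

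Qars, Iars, Wars and Sars led the cytosolic falls. Qars, on chromosome 9, 108507706 to 108515941, plus strand, read 3907 and 3840 at 0 h, 3762 and 3729 at 2 h, 2869 and 3033 at 6 h, and 2842 and 2971 at 12 h. It was lower at 6 and 12 h with no overlap, with changes of -0.39 (SE 0.09, limma adjusted p = 0.00109) and -0.41 (SE 0.09, adjusted p = 0.000469). Iars (isoleucine) read 3579 and 3236 at 0 h, 3393 and 3814 at 2 h, 3028 and 2387 at 6 h, and 2603 and 2087 at 12 h, a change of -0.34 (SE 0.13, limma adjusted p = 0.0307) and then -0.55 (SE 0.13, adjusted p = 0.00105). The 6 h call of Iars was lost without E2F1 6 h replicate 2 (-0.17) or E2F1 0 h replicate 1 (-0.27). Wars (tryptophan) read 2142 and 2199 at 0 h, 2181 and 2360 at 2 h, 1803 and 1763 at 6 h, and 1726 and 1818 at 12 h, lower by 0.28 and 0.29 on the log2 scale. Its 6 h call needed E2F1 6 h replicate 2 and E2F1 0 h replicate 2, and its 12 h call E2F1 12 h replicate 1: without each of them Wars gave -0.27, -0.26 and -0.26 and missed the threshold. Sars (serine) read 5905 and 5654 at 0 h, 5889 and 6438 at 2 h, 5670 and 5144 at 6 h, and 4233 and 4259 at 12 h, a late fall of -0.44 (SE 0.12, limma adjusted p = 0.0037). Kars and Rars, for lysine and arginine, were called lower at 6 h alone, at -0.26 and -0.24, and Tars at 12 h alone, at -0.34. The Kars call was lost without E2F1 0 h replicate 1 (-0.19) or E2F1 6 h replicate 2 (-0.19), the Rars call without E2F1 0 h replicate 1 (-0.18) or either 6 h library (-0.25 and -0.23), and the Tars call without E2F1 0 h replicate 1 (-0.29) or E2F1 12 h replicate 2 (-0.26).

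Yars2 rose early in the mitochondrial set. On chromosome 16, 16302965 to 16309640, plus strand, it read 753 and 623 at 0 h, 628 and 753 at 2 h, 1398 and 1210 at 6 h, and 1188 and 1023 at 12 h. Both later groups lay above both earlier ones, with changes of 0.92 (SE 0.13, limma adjusted p = 9.90e-06) and 0.69 (SE 0.13, adjusted p = 0.000158). Cars2 (cysteine) read 745 and 672 at 0 h, 744 and 702 at 2 h, 814 and 735 at 6 h, and 1215 and 1074 at 12 h, and rose at 12 h by 0.69 (SE 0.12, limma adjusted p = 0.000109). Pars2, for proline, read 315 and 291 at 0 h, 345 and 299 at 2 h, 419 and 361 at 6 h, and 501 and 494 at 12 h, a rise at 12 h of 0.71 (SE 0.19, limma adjusted p = 0.00308). Mars2 read 471 and 507 at 0 h and 712 and 594 at 12 h, a rise of 0.41 that was lost without E2F1 12 h replicate 1 (0.28), without E2F1 0 h replicate 1 (0.36) and with equal totals (0.35).

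The mitochondrial falls in the E2F1 line were smaller. Vars2 read 1287 and 1374 at 0 h, 1261 and 1157 at 2 h, 822 and 930 at 6 h, and 956 and 847 at 12 h. It was lower without overlap, with changes of -0.60 (SE 0.12, limma adjusted p = 0.000585) and -0.56 (SE 0.12, adjusted p = 0.000757). Aars2, the mitochondrial alanine enzyme, read 925 and 861 at 0 h, 902 and 887 at 2 h, 652 and 578 at 6 h, and 684 and 655 at 12 h, changes of -0.54 and -0.41. Ears2 (glutamate) read 547 and 428 at 0 h, 388 and 476 at 2 h, 373 and 348 at 6 h, and 360 and 333 at 12 h, changes of -0.42 and -0.48. Nars2 read 258 and 256 at 0 h, 231 and 276 at 2 h, 181 and 193 at 6 h, and 157 and 183 at 12 h, and only its 12 h change of -0.60 was called (SE 0.21, limma adjusted p = 0.0211). Wars2 was called at both times, at -0.39 and -0.41, Hars2 at 6 h, at -0.41, and Iars2 at 12 h, at -0.34. Of these genes, Vars2 kept its call at 6 and 12 h under every alternative run. The 6 h call of Ears2 was lost without E2F1 0 h replicate 1 (-0.25), E2F1 6 h replicate 1 (-0.47) or replicate 2 (-0.37), and its 12 h call without E2F1 0 h replicate 1 (-0.31) or E2F1 12 h replicate 2 (-0.43). Nars2 missed the threshold without either 0 h library (-0.59 and -0.60) or E2F1 12 h replicate 1 (-0.49). The 12 h calls of Aars2 and Iars2 were lost without E2F1 12 h replicate 2, at -0.38 and -0.22, or E2F1 0 h replicate 1, at -0.36 and -0.30, and the 6 h call of Hars2 without E2F1 6 h replicate 1, at -0.39, or E2F1 0 h replicate 2, at -0.35. Wars2 missed it at 6 h without E2F1 0 h replicate 2 (-0.30), E2F1 6 h replicate 1 (-0.33) or replicate 2 (-0.44), and at 12 h without E2F1 0 h replicate 2 (-0.32) or E2F1 12 h replicate 2 (-0.30).

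Doxycycline alone had little effect on the synthetases of the EV line at 6 and 12 h. At 6 h limma called 0 of 37 (2 with an unadjusted p below 0.05), where 0.134% of all genes were called. At 12 h it called 0 higher and 1 lower, against 0.749% and 3.42% of all genes: Mars2 went from 398 and 393 to 262 and 259, a change of -0.60 (SE 0.15, adjusted p = 0.0293). The Mars2 call was lost whichever of the 4 libraries compared was left out, at -0.59 to -0.61. At 2 h, where the libraries stood apart as described above, 4 genes were called higher and 0 lower, with 4.93% of all genes called higher and 2.43% lower. Aars went from 4811 and 4173 to 6733 and 7866, Tars from 3468 and 3187 to 4318 and 4680, Eprs (glutamate and proline) from 5342 and 5177 to 6737 and 7318, and Yars2 from 552 and 540 to 737 and 794. Their limma changes were 0.70, 0.44, 0.42 and 0.49, and no library overlapped 0 h. Without EV 0 h replicate 2 or EV 2 h replicate 2 the count of called genes was 0, and the Yars2 call was also lost without either replicate 1 (0.50 and 0.54).

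Differences between the lines in the response to doxycycline were tested directly. The E2F1 change minus the EV change gave 0 calls at 2 h (3 with an unadjusted p below 0.05), against 0.143% of all genes. At 6 h limma called 4 higher and 4 lower, where 22.2% of all genes were higher and 12.3% lower. Among the higher were Gars by 1.16 (SE 0.19, adjusted p = 9.08e-05), Yars2 by 1.11 (SE 0.18, adjusted p = 0.000112) and Vars by 0.38. Lower were Vars2 by 0.54, Iars by 0.48, Tars by 0.44 and Qars by 0.42 on the log2 scale. At 12 h the counts were 9 higher and 4 lower, against 27.3% and 23.3%. The higher ones included Mars2 at 1.01, Gars at 0.99, Vars at 0.82 and Yars2 at 0.78. In this comparison Mars2 rose in 1 line and fell in the other. Quantile normalization gave 3 higher with 13 lower for 6 h, then 7 with 11 for 12 h, and equal totals gave 3 and 7, then 8 and 8. The 6 h count was 5 without E2F1 6 h replicate 1 and 4 without EV 6 h replicate 1. Without the 2 h doxycycline libraries 7 genes were called at 6 h and 12 at 12 h. The 6 h calls of Gars and Yars2 and the 12 h calls of Mars2, Gars, Vars, Yars2, Cars2, Hars and Sars were kept in every alternative run, and each of the others named here was lost in at least 2 fits that left out 1 library. At 6 h these gave -0.31 for Iars without E2F1 6 h replicate 2, -0.33 for Qars without EV 6 h replicate 2, -0.38 for Tars without EV 0 h replicate 2, 0.30 for Vars and -0.45 for Vars2 without E2F1 6 h replicate 1. At 12 h they gave 0.24 for Dars without EV 12 h replicate 1, -0.38 for Ears2 without E2F1 0 h replicate 1, 0.58 for Pars2 without EV 0 h replicate 2, -0.25 for Qars without EV 12 h replicate 2 and -0.43 for Wars2 without EV 0 h replicate 1.

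E2F1 and serum were then compared at matched times as the E2F1 change minus the serum change, each against 0 h of its own line. At 6 h limma called 2 synthetases higher for E2F1 and 26 lower, where 30.3% of all genes were higher and 27.6% lower. At 12 h the counts were 2 and 28, against 25% and 23.8%. The median difference of the cytosolic genes was -1.18 at 6 h and -0.90 at 12 h, and that of the mitochondrial genes -0.17 and -0.47. Tars had the largest gap at 6 h, -2.14 (SE 0.15, adjusted p = 2.15e-09), followed by Farsb at -2.00 and Nars at -1.94. Of the 20 cytosolic genes, 19 were lower for E2F1 at both times, and the gap of Gars alone, -0.36 and then -0.19, did not pass. The 12 h call of Qars was lost whichever library of the groups compared was left out, at -0.29 to -0.35. Without a variance trend the 12 h calls of Qars (-0.32) and Cars (-0.65) were lost. Cars, Lars and Sars were also among those lost at 12 h in fits that left out 1 library. Fars2 was higher for E2F1 at 6 h, by 1.08, and Cars2 at 12 h, by 0.66. The 2 stimuli were given to different lines, so stimulus and line cannot be told apart in this comparison.

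The starved lines themselves differed. At 0 h the E2F1 line was higher than the EV line in 8 synthetases and lower in 0, against 8.86% and 6.17% of all genes, and all 8 were cytosolic. Eprs had the largest difference, 0.64 (SE 0.10, limma adjusted p = 0.000328), with 8277 and 8091 in the E2F1 line against 5342 and 5177. The others were Aars, Hars, Lars, Tars, Yars, Dars and Rars, between 0.30 and 0.52. The count was 1 without E2F1 0 h replicate 1, 3 without replicate 2, 2 without EV 0 h replicate 1 and 4 without replicate 2, and it was 4 without either the 2 h doxycycline or the 2 h serum libraries.

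Several of the cytosolic enzymes sit together in the multi-synthetase complex, which Aimp1, Aimp2 and Eef1e1 hold together as scaffold proteins. Of its 8 enzyme genes (Dars, Eprs, Iars, Kars, Lars, Mars, Qars and Rars) 6 rose and 1 fell at 2 h of serum, and 7 rose and 0 fell at both 6 and 12 h. Of the 12 free cytosolic genes 11, 12 and 11 rose and 0 fell. Among all genes 37.5%, 36.5% and 36% rose in serum and 33.5%, 31% and 29.7% fell. In the E2F1 line 0 complex genes rose and 4 fell at 6 h, against 28.8% and 22.9% of all genes. Of these 4 calls, those of Iars, Kars and Rars were lost in fits that left out 1 library. At 12 h 3 rose and 2 fell, near the shares of all genes, 31.8% and 29.7%. The scaffold gene Aimp2 rose under both stimuli, by 1.22, 1.66 and 1.60 in serum and by 0.63 and 0.67 at 6 and 12 h in the E2F1 line. Eef1e1 rose in serum by 1.89, 1.31 and 1.36, and its E2F1 changes of -0.19 and -0.09 did not pass. Aimp1 fell at 2 h of serum by 0.44 on the log2 scale and was not called elsewhere in these comparisons.

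Known ATF4 targets were counted apart. Of 13 such synthetases 11 rose at 2 h of serum, 13 at 6 h and 12 at 12 h, with 0 falls. Of the other 7 cytosolic genes 6 rose at each time, with 1 fall at 2 h. Among all genes 37.5%, 36.5% and 36% rose in serum at these times, and 33.5%, 31% and 29.7% fell. In the E2F1 line the 13 gave 3 rises and 2 falls at 6 h, against 28.8% and 22.9% of all genes. At 12 h they gave 4 rises and 4 falls, near the shares of all genes, 31.8% and 29.7%. Other genes of the ATF4 response, 20 in the list, gave 16 rises and 0 falls at 2 h of serum, then 14 and 1, and 10 and 2, with medians of 1.06, 0.80 and 0.54. In the E2F1 line these 20 gave 3 rises and 1 fall at 6 h and 4 and 5 at 12 h, below the shares of all genes. Amino acid transporters were mixed, with 6 of 10 higher and 3 lower at 2 and 6 h of serum. Slc7a1, the carrier of cationic amino acids, rose in serum by 2.27, 1.77 and 1.27 and in the E2F1 line by 2.04 at 6 h and 1.64 at 12 h (limma adjusted p = 8.1e-09 and 9.6e-08). Slc7a5, which imports large neutral amino acids, rose in serum by 2.39, 1.63 and 0.77 and in the E2F1 line at 6 h alone, by 0.84.

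The partners of charging were less uniform. Of 9 genes that complete or use charged mitochondrial tRNA, 3 rose and 3 fell at 2 h of serum, 5 rose and 1 fell at 6 h, and 6 rose and 0 fell at 12 h. Among all genes 37.5%, 36.5% and 36% rose and 33.5%, 31% and 29.7% fell, so the 2 h counts were near the general shares. Of the 9, Gatb, a subunit of the amidotransferase that makes mitochondrial glutaminyl-tRNA, was the lowest, at -1.51 and -1.08 at 2 and 6 h. Trnt1, which adds the CCA end to tRNAs, rose by 1.06, 1.06 and 0.89. In the E2F1 line Qrsl1 and Gatc, the other subunits of that amidotransferase, rose by 0.42 and 0.64 at 6 h and by 0.90 and 0.86 at 12 h, and Mtfmt, which formylates the initiator methionyl-tRNA, fell by 0.65 and 0.48 on the log2 scale. Among 21 genes of RNA polymerase III transcription, which makes the tRNAs, 8 rose and 8 fell at 2 h of serum, shares near those of all genes (37.5% and 33.5%). Polr3g, a subunit of the polymerase, rose by 2.51, and Maf1, its repressor, fell by 1.57 on the log2 scale. In the E2F1 line 6 rose and 8 fell at 6 h, against 28.8% and 22.9% of all genes. At 12 h 6 rose and 7 fell, against 31.8% and 29.7%. The Polr3g changes of -0.18 and -0.12 in that line did not pass. Of 6 elongation factor genes, which deliver or use charged tRNA at the ribosome, Eef1a1, Eef1b2, Eef1g and Eef2 fell at 12 h in the E2F1 line, by 0.59, 0.41, 0.62 and 0.80 on the log2 scale. In serum 2 of the 6 rose and 2 fell at each time, shares near those of all genes. Tarsl2, a second threonine enzyme of the cytosol that the member rule left out, fell by 1.25 on the log2 scale at 2 h of serum and rose by 0.64 at 12 h in the E2F1 line.

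Positions along the genome gave the last description. Among the synthetases reported by name, 6 start within 200 bases of a gene on the other strand outside the family (Ears2, Fars2, Kars, Rars2, Sars2 and Yars), and Hars and Hars2 start 197 bases apart. In the E2F1 line at 12 h, Lyrm4 beside Fars2 rose by 0.88 whereas the Fars2 change of 0.18 did not pass. Lyrm4 rose as well in the EV line with doxycycline, by 0.90 at 12 h, and the difference between the lines, -0.02, did not pass. Ubfd1 beside Ears2 fell by 0.65 on the log2 scale at 12 h in the E2F1 line. Ears2 fell by 0.48, a call lost without E2F1 0 h replicate 1 or E2F1 12 h replicate 2. Terf2ip, next to Kars, fell by 0.47, and the Kars change of -0.09 did not pass. The other 3 partners had like means at 0 and 12 h in that line. These were 1025 and 1051 for Orc3 (Rars2), 707 and 753.5 for Mrps12 (Sars2), and 2511 and 2556 for S100pbp (Yars). The spans of Cars2, Ears2, Fars2, Hars, Hars2, Iars2, Mars, Wars and Yars, introns included, overlap a gene of the table on the opposite strand. Where exons overlap, reads of the partner cannot be told apart without strand, and overlap of exons was not checked.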

How the data were processed

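RNA was measured in 22 NIH/3T3 libraries, read as paired ends of 150 bp, per the labels' protocols; groups and replicate numbers were taken from the labels. The submitters' processing notes name FastQC, Trimmomatic, HISAT2, featureCounts, DESeq2 and mm10; use of strand and the annotation release are not given in the sources used here. The authors deposited 1 table of normalized counts rounded to whole numbers, treated here as a score and not as raw counts. The log2 changes in the authors' deposited tables and the adjusted p-values beside them, as the authors deposited them, cover only genes with large changes. Serum tables name a serum 0 h group, taken as the EV 0 h libraries.

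With limma 3.58.1 (R 4.3.3), log2(value + 1) was fitted to a mean for each of 11 groups in 22 libraries (11 residual degrees of freedom), with a variance trend. P-values were adjusted by Benjamini-Hochberg over 11208 genes in each of 15 comparisons, with a threshold of 0.05. The filter, a value of at least 10 in 2 libraries, removed no gene. The alternatives were a pseudocount of 8, a mean of at least 500, quantile normalization, equal totals, no variance trend, only the groups compared, the replicate number as a block and leaving out each library; leaving out the 2 h libraries was added after seeing the data. The code was tested on simulated data. Depth in reads is unknown, so replicate spread sets the precision.

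Members, lists and named genes were chosen with earlier results of these data known. Values in every library are given for E2f1 and, in each comparison with 0 h, for up to 3 rises and 3 falls of largest change among called cytosolic and among called mitochondrial genes; Ddx3y and CT010467.1 were chosen after their values were seen. For 1 mitochondrial member no values of its own are reported here, and it enters the counts and medians only. Positions are from GRCm38 with GENCODE M21, which holds 10977 of the 11208 identifiers with the same version; promoters are from RefSeq. Tables and figures used Python 3.11.15, pandas 2.3.3, numpy 2.4.6 and matplotlib 3.10.9.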

Additional observations from a re-analysis of the deposited data

Results flagged for a closer look

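The response to doxycycline differed between the E2F1 and EV lines, by the limma test of the difference itself, in 8 synthetases at 6 h and 13 at 12 h. These were 4 higher and 4 lower of 37 at 6 h, where 22.2% and 12.3% of all genes were called, and 9 and 4 at 12 h, where 27.3% and 23.3% were, so that synthetases were called no more often than genes in general. At 6 h the E2F1 change minus the EV change was 1.16 for Gars, 1.11 for Yars2 and 0.38 for Vars. It was -0.54 for Vars2, -0.48 for Iars, -0.44 for Tars and -0.42 for Qars. At 12 h it was 1.01 for Mars2, 0.99 for Gars, 0.82 for Vars, 0.78 for Yars2, 0.68 for Pars2, 0.65 for Cars2, 0.61 for Hars and 0.39 for Dars. The negative differences at 12 h were -0.60 for Sars, -0.60 for Wars2, -0.56 for Ears2 and -0.36 for Qars. Gars, Yars2, Qars and Vars were on the list at both times with the same sign. The sets at the 2 times share the 0 h libraries of both lines. Groups of 2 libraries were too small for the test of single outlying libraries.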

How the results depend on the processing

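Of 216 called changes of single synthetases, 151 were kept in every alternative run, 65 missed the threshold in at least 1, and 1 changed sign: Mars at 2 h of serum, -0.032 with equal totals. Counts of called synthetases stayed within 1.5 times the value reported under the alternatives of scaling, pseudocount, abundance, variance trend and fitted groups, except in 4 comparisons. The E2F1 change at 2 h gave 1 and the EV doxycycline change at 12 h gave 0 when only the groups compared were fitted. The difference between the lines at 6 h gave 16 under quantile normalization. The starved lines at 0 h gave 2 without a variance trend, 2 with only the groups compared, and 4 without the 2 h doxycycline or the 2 h serum libraries; the cause was not tested. With 1 library left out, where the lone library of a group is assumed to vary like the other groups, the counts ran from 0 to 0 (E2F1 2 h), 9 to 11 (E2F1 6 h), 16 to 17 (E2F1 12 h), 0 to 3, 0 to 0 and 0 to 1 (EV doxycycline 2, 6 and 12 h), and 29 to 30, 26 to 29 and 26 to 28 (serum 2, 6 and 12 h). For the difference between the lines they ran from 0 to 0, 4 to 9 and 10 to 13, for E2F1 against serum from 27 to 28 and 25 to 29, and for the lines at 0 h from 1 to 4. Replicate numbers did not pair the libraries throughout: over 55 pairs of groups the correlation of same-numbered deviations had a median of 0.03, from -0.28 to 0.45, and exceeded 0.1 in 18. It was 0.14 to 0.36 among the 0, 6 and 12 h doxycycline groups of the E2F1 line and 0.30 to 0.45 among those of the EV line. With the replicate number as a block the counts were those reported except 31 at 6 h and 29 at 12 h of serum, 14 for the difference between the lines at 12 h and 9 at 0 h. Depth in reads is unknown, and 2 libraries per group limit what could be called.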
